A study of Mus musculus with 8 samples.

Results

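The subject is a group of 8 genes for cardiac calcium channels (Cacna1c, Cacnb2, Cacna1g, Cacna1h), pacemaker channels (Hcn2, Hcn4) and connexins (Gja1, Gja5), out of 20659 gene symbols on the array. They were chosen by name, through the RefSeq transcript that each probe is assigned to, and 13 of the 39429 non-control probes matched them: 2 probes each for 5 genes and 1 each for Cacna1c, Hcn4 and Gja1. The working title of the group also speaks of sodium channels, but none of the 8 genes encodes one; sodium channel beta subunits are given below as a neighbouring list. The samples were myocardium of untreated male mice, 3 labelled NPRA-/- and 5 labelled NPRA+/+, with 1 one-colour Agilent expression array each. NPRA, encoded by Npr1, is the guanylyl cyclase receptor of atrial and B-type natriuretic peptide. The NPRA-/- mice come from a floxed Npr1 line and the series title restricts the deletion to the heart; the sources used here do not give the promoter that drives the deletion, the age, or whether the NPRA+/+ mice carry the floxed allele. No label ties a sample to a separate animal, and the p-values reflect only how far these samples scatter. NPRA+/+ replicates 1 to 3 also share the number 1 in their source names, so these 3 arrays may not be independent samples, and every n = 5 below counts them as 3. With the 3 averaged to 1 value, 0 of the 12 probes tested here passed the threshold (limma).

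The electrical beat of the heart needs all 3 kinds of protein. Calcium entering through L-type channels in the surface membrane triggers the release of stored calcium that makes the muscle contract, while T-type channels open at more negative voltages and are known from pacemaker tissue and from the fetal heart. HCN channels open on hyperpolarization, bind cyclic nucleotides and carry the current that drives spontaneous firing in the sinoatrial node. Connexins form the gap junctions through which the impulse passes from cell to cell.

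On each array 79.5% to 92.6% of the non-control probes were well above background. The processed signal had a 75th percentile of 775 to 1253. Levels below are log2 signals relative to that percentile of the same array, so that 0 is the percentile itself; a level is comparable between arrays for 1 probe and not between probes. The median of all 35329 probes tested was shifted by 0.21 (log2, NPRA-/- over NPRA+/+). Changes called relative are the fitted change less this shift, and the limma p-values test the fitted change against 0. The shift differed with signal, at 0.63 and 0.40 in the dimmest and the second dimmest of 5 equal groups of probes, 0.22 in the middle group, and 0.05 in each of the 2 brighter groups. The arrays were scanned on 4 days, and only scan day 1 held both genotypes (replicates 2 and 3 of each). NPRA-/- replicate 1 was alone on scan day 3 and NPRA+/+ replicate 1 alone on scan day 4, and these 2 arrays also had the highest levels of the contractile genes Actc1, Tnnt2 and Myh6 (its brightest probe), though not of all contractile genes. Actc1, cardiac actin, was at 8.47 in NPRA-/- replicate 1 and 8.07 in NPRA+/+ replicate 1, against 6.95 and 6.97 in the other NPRA-/- arrays and 6.06 to 6.69 in the other NPRA+/+ arrays.

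All the genes but Hcn4 were detected, with 12 probes of 7 genes well above background on all 8 arrays. None (0) of these 12 probes passed the threshold between the genotypes (limma, Benjamini-Hochberg over 35329 probes, adjusted p from 0.247 to 0.996), against 0.348% of all probes tested (0.32% higher and 0.0283% lower in NPRA-/-). With the repetition number of the labels as a block, 0 of the 12 and 0 of all probes passed. At an unadjusted p under 0.05 there was 1 of the 12, the Gja1 probe, against 19.7% of all probes. The genotypes overlapped for every one of the 12 (0 without overlap), against 15.4% of all probes tested without overlap (14.1% higher and 1.29% lower in NPRA-/-). The fitted change was positive for 6 and negative for 6, with a median of -0.03, beside a median of 0.21 for all probes, of which 25.0% had a negative fitted change. Relative to the shift, 9 probes were negative and 3 positive, with a median of -0.24, and 9 lay below the median of the probes of like signal. The 3 positive ones were both probes of Cacna1h and the brighter probe of Cacna1g, which all encode T-type channels. In bulk tissue, fewer cells of a type and less RNA per cell cannot be told apart.

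**Figure D1:**
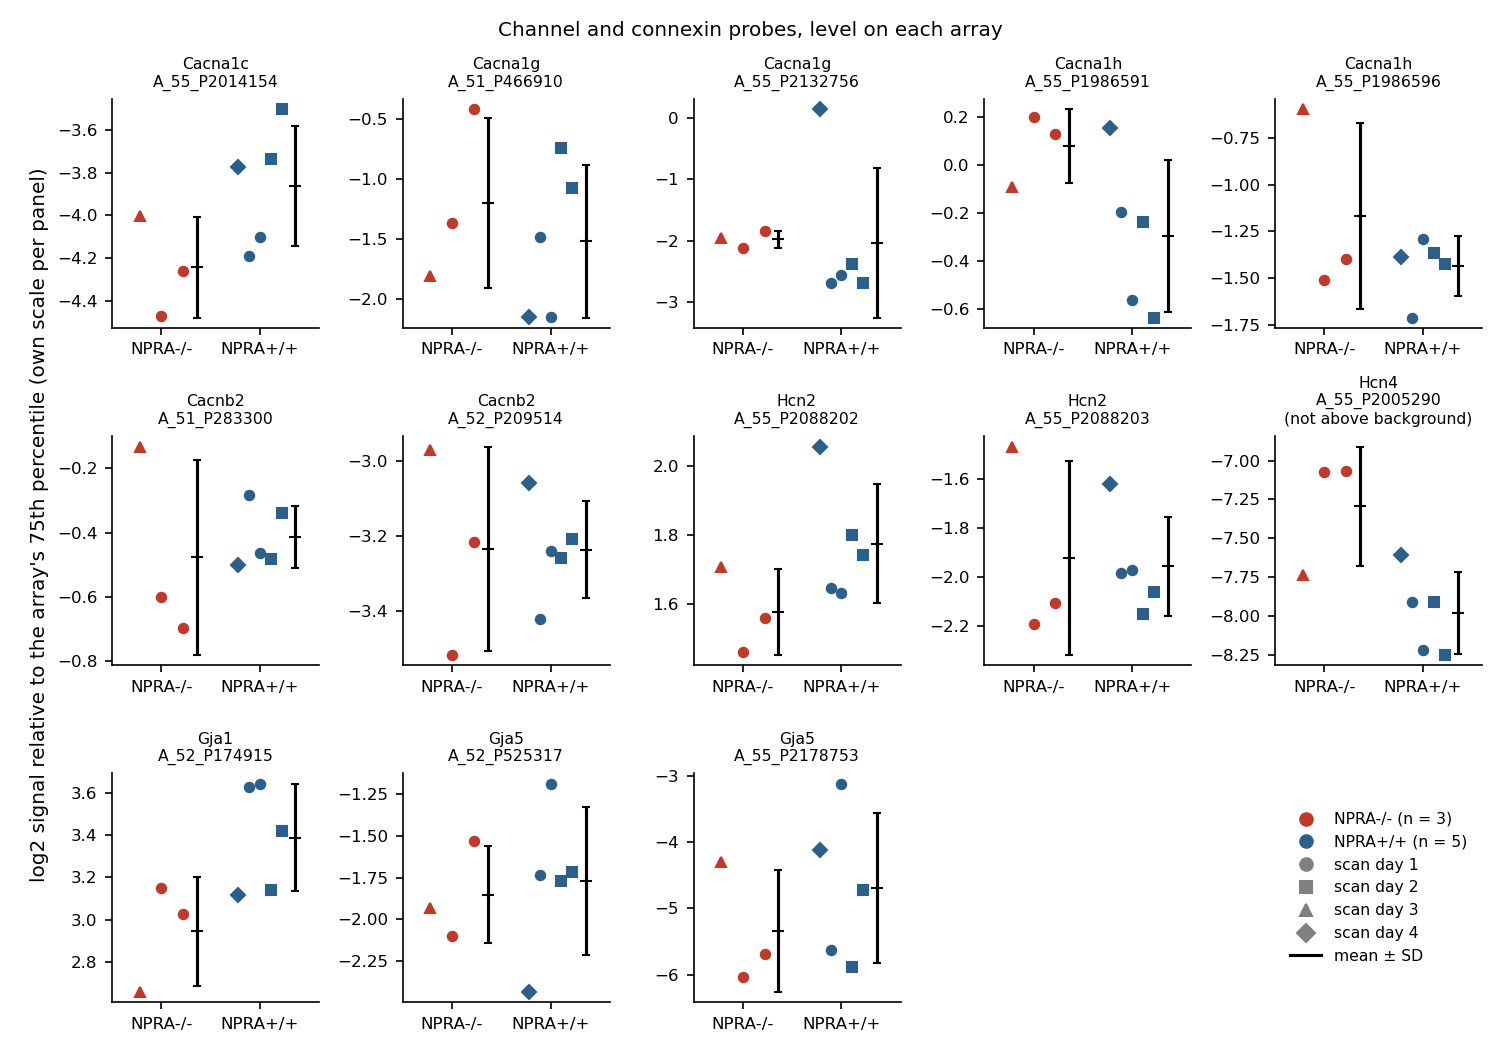
Log2 signal relative to the array's 75th percentile (vertical axis, own scale in each panel) for the 13 probes, NPRA-/- arrays on the left and NPRA+/+ arrays on the right, with the mean ± SD of each genotype and the scan day as the symbol. In every panel at least 1 array of one genotype lies within the range of the other; the Hcn4 probe was not well above background on any array.

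Gja1 encodes the main gap junction protein of working ventricular muscle. Its level was 2.66, 3.15 and 3.02 in NPRA-/- replicates 1 to 3, against 3.11, 3.63, 3.64, 3.14 and 3.42 in NPRA+/+ replicates 1 to 5. The lowest value was that of NPRA-/- replicate 1, and NPRA-/- replicate 2 lay above NPRA+/+ replicates 1 and 4, so the genotypes overlapped narrowly. Gja1 averaged 2.94 ± 0.26 (SD, n = 3) in NPRA-/- arrays and 3.39 ± 0.25 (SD, n = 5) in NPRA+/+ arrays. Before scaling its signal was 4890 to 8744 in NPRA-/- arrays and 9393 to 11736 in NPRA+/+ arrays. The fitted change was -0.44 ± 0.19 (SE; limma, adjusted p = 0.247), with a 95% interval of -0.88 to -0.01, and the relative change was -0.65. Probes of like signal had a median of 0.05.

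Within scan day 1 the 2 NPRA-/- arrays were both lower in Gja1 (3.15 and 3.02) than the 2 NPRA+/+ arrays (3.63 and 3.64). On those 4 arrays alone the relative change was -0.72 and the probe passed the threshold (limma, adjusted p = 0.0367), in a fit that called 5979 probes (16.9%). It also passed with array weights (relative change -0.65, limma, adjusted p = 0.0219), a fit that called 9557 (27.1%). The NPRA+/+ arrays of scan day 2, replicates 4 and 5, were at 3.14 and 3.42, so the NPRA+/+ values of scan day 1 were the highest of that genotype. Under all 25 alternatives tried the relative change of Gja1 was negative, between -0.86 and -0.48.

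Gja5 encodes the connexin of atrial muscle, of the ventricular conduction system and of arterial endothelium. The brighter probe (A_52_P525317) was at -1.93, -2.10 and -1.53 in NPRA-/- replicates 1 to 3, against -2.44, -1.74, -1.19, -1.77 and -1.72 in NPRA+/+ replicates 1 to 5. Both the lowest and the highest value were NPRA+/+ arrays, and the fitted change was -0.08 ± 0.27 (SE; limma, adjusted p = 0.901, 95% interval -0.70 to 0.54). The dimmer probe (A_55_P2178753) scattered far more, at -4.30, -6.04 and -5.69 in NPRA-/- arrays against -4.12, -5.63, -3.12, -5.88 and -4.72 in NPRA+/+ arrays. Its SD was 0.92 (n = 3) and 1.13 (n = 5), which left a fitted change of -0.65 ± 0.67 (limma, adjusted p = 0.646) that the brighter probe did not show in size. The difference between the 2 Gja5 probes within an array ran from 1.68 in NPRA+/+ replicate 1 to 4.16 in NPRA-/- replicate 3.

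Cacna1c encodes the pore of the L-type calcium channel of heart muscle. Its probe was at -4.00, -4.47 and -4.26 in NPRA-/- replicates 1 to 3, against -3.78, -4.19, -4.10, -3.74 and -3.50 in NPRA+/+ replicates 1 to 5. The 2 lowest values were NPRA-/- arrays and the 3 highest NPRA+/+ arrays, while the 3 in between mixed the genotypes. The means of -4.24 ± 0.23 (SD, n = 3) in NPRA-/- arrays and -3.86 ± 0.28 (SD, n = 5) in NPRA+/+ arrays gave a fitted change of -0.38 ± 0.20 (SE; limma, adjusted p = 0.324, 95% interval -0.83 to 0.07). Relative to the shift this was -0.59, the most negative value after those of the dimmer Gja5 probe and of Gja1, and probes of like signal had a median fitted change of 0.40. The NPRA+/+ arrays of scan day 1 (-4.19 and -4.10) were the lowest of that genotype, and within that day the relative change was -0.39 (limma, adjusted p = 0.258). With normexp background correction it was -0.20, and with quantile normalization -0.80 (limma, adjusted p = 0.388). Before scaling the signal of this probe was low, at 44.4 to 48.4 in NPRA-/- arrays and 45.3 to 96.7 in NPRA+/+ arrays.

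Cacnb2 encodes a beta subunit that brings the L-type pore to the membrane and sets its gating. Its brighter probe (A_51_P283300) was at -0.13, -0.60 and -0.70 in NPRA-/- arrays, against -0.50, -0.28, -0.46, -0.48 and -0.34 in NPRA+/+ arrays. NPRA-/- replicate 1 was the highest of all 8 arrays and the other 2 NPRA-/- arrays the lowest, so the genotype mean hides a split between them. The fitted changes of the 2 probes were -0.06 ± 0.16 and 0.00 ± 0.16 (SE; limma, adjusted p = 0.868 and 0.996). The dimmer probe (A_52_P209514) ranged from -3.52 to -2.97 in NPRA-/- arrays and from -3.42 to -3.06 in NPRA+/+ arrays, again with NPRA-/- replicate 1 highest. The distance between the 2 probes ran from 2.52 to 3.14, a spread of 0.62. Over the 8 arrays the brighter probe itself ran from -0.70 to -0.13 and the dimmer one from -3.52 to -2.97.

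Cacna1h encodes one of the T-type channel pores of the heart. The brighter probe (A_55_P1986591) was at -0.09, 0.20 and 0.13 in NPRA-/- replicates 1 to 3, against 0.15, -0.19, -0.56, -0.24 and -0.63 in NPRA+/+ replicates 1 to 5. Among NPRA+/+ arrays only replicate 1 reached the NPRA-/- values. Its mean was 0.08 ± 0.15 (SD, n = 3) in NPRA-/- arrays against -0.29 ± 0.32 (SD, n = 5) in NPRA+/+ arrays, with a fitted change of 0.37 ± 0.20 (SE; limma, adjusted p = 0.341, 95% interval -0.08 to 0.83) and a relative change of 0.17. With array weights, a fit that called 27.1% of all probes, it passed the threshold (relative change 0.33, limma, adjusted p = 0.0165). With normexp the relative change was -0.02. Its other probe (A_55_P1986596) was at -0.60, -1.51 and -1.40 in NPRA-/- arrays and between -1.71 and -1.29 in NPRA+/+ arrays. There the fitted change of 0.27 ± 0.22 (limma, adjusted p = 0.556) rested on NPRA-/- replicate 1, without which it was -0.02. The relative change was 0.06 with all arrays and -0.21 without that array.

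Cacna1g encodes the other T-type pore known from pacemaker tissue, and its 2 probes disagreed. The brighter probe (A_51_P466910) was at -1.80, -1.36 and -0.42 in NPRA-/- replicates 1 to 3, against -2.15, -1.48, -2.15, -0.74 and -1.08 in NPRA+/+ replicates 1 to 5. It varied widely within each genotype, and the fitted change was 0.32 ± 0.42 (SE; limma, adjusted p = 0.726, 95% interval -0.65 to 1.29). The dimmer probe (A_55_P2132756) was at -1.96, -2.12 and -1.84 in NPRA-/- arrays, against 0.14, -2.68, -2.56, -2.37 and -2.68 in NPRA+/+ arrays. NPRA+/+ replicate 1 stood far above the other 7 arrays on this probe, while on the brighter probe of the same gene it was among the lowest. With all arrays the fitted change of the dimmer probe was 0.06 ± 0.63 (limma, adjusted p = 0.975).

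Without NPRA+/+ replicate 1 all 3 NPRA-/- arrays lay above the 4 remaining NPRA+/+ arrays on the dimmer Cacna1g probe. The fitted change was then 0.60 ± 0.13 (limma, adjusted p = 0.0355), in a fit that called 4088 probes in all (11.6%), and the relative change was 0.38. Leaving out scan days 3 and 4 gave 0.39 (limma, adjusted p = 0.04995), in a fit that called 11.7% of all probes. Scan day 1 alone gave 0.46, which missed the threshold (limma, adjusted p = 0.0507). The brighter probe did not do the same: without NPRA+/+ replicate 1 its relative change was -0.05, and within scan day 1 it was 0.75 (limma, adjusted p = 0.198).

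**Figure D2:**
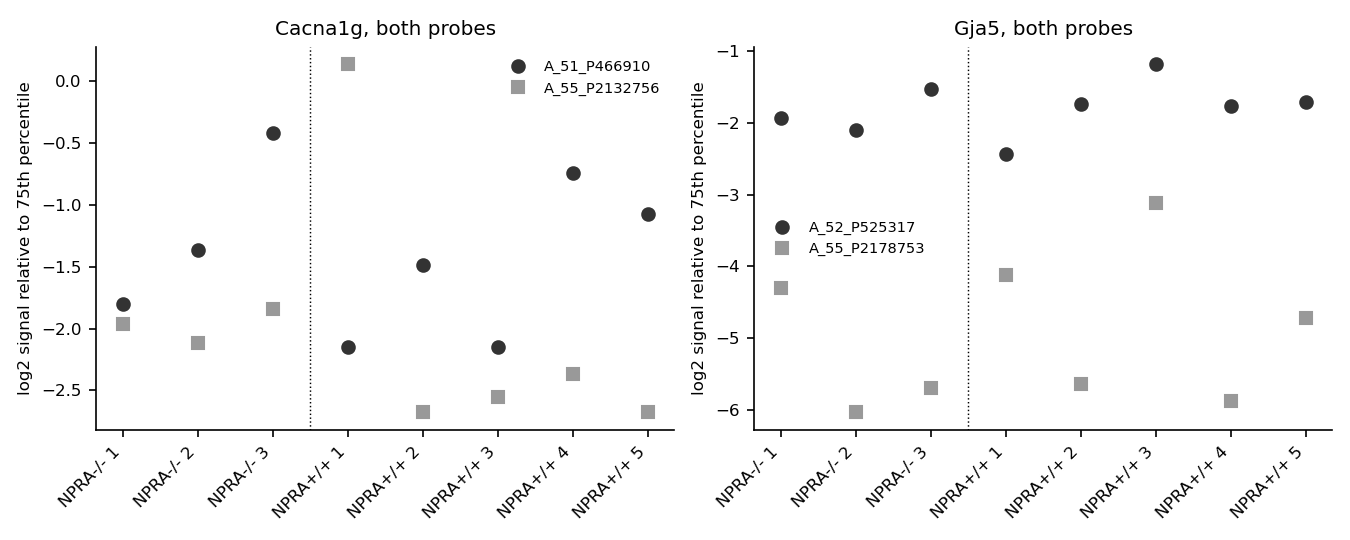
Levels of both probes of Cacna1g (left) and of Gja5 (right) on each array (log2 signal relative to the 75th percentile), NPRA-/- arrays left of the dotted line. On NPRA+/+ replicate 1 the dimmer Cacna1g probe was at 0.14 and the brighter one at -2.15; the dimmer Gja5 probe spread from -6.04 to -3.12 while the brighter one spread from -2.44 to -1.19.

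Hcn2 encodes the HCN channel found in ventricular as well as pacemaker cells. Its brighter probe (A_55_P2088202) was at 1.71, 1.46 and 1.56 in NPRA-/- replicates 1 to 3, against 2.06, 1.65, 1.63, 1.80 and 1.74 in NPRA+/+ replicates 1 to 5. The 2 NPRA-/- arrays of scan day 1 were below every NPRA+/+ array, and NPRA-/- replicate 1 was above 2 of them. The fitted change was -0.20 ± 0.14 (SE; limma, adjusted p = 0.489, 95% interval -0.53 to 0.13) and the relative change -0.41. The dimmer probe (A_55_P2088203) had a fitted change of 0.04 ± 0.20 (limma, adjusted p = 0.947), with levels of -2.19 to -1.47 in NPRA-/- arrays and -2.15 to -1.62 in NPRA+/+ arrays. Replicate 1 of each genotype was the highest of its group on both Hcn2 probes.

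Hcn4 encodes the HCN channel that defines the sinoatrial node. Its only probe was not well above background on any array (0 of 3 NPRA-/- and 0 of 5 NPRA+/+), so it was not in the limma fit, and neither a fold nor a test is given. Its measured values were -7.74, -7.08 and -7.07 in NPRA-/- replicates 1 to 3, against -7.61, -7.91, -8.22, -7.91 and -8.25 in NPRA+/+ replicates 1 to 5. The processed signals themselves were 3.63 to 7.30 in NPRA-/- arrays and 2.62 to 5.55 in NPRA+/+ arrays, the low end of the scanner's scale. Differences at this level are below what the probe can measure.

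**Figure D3:**
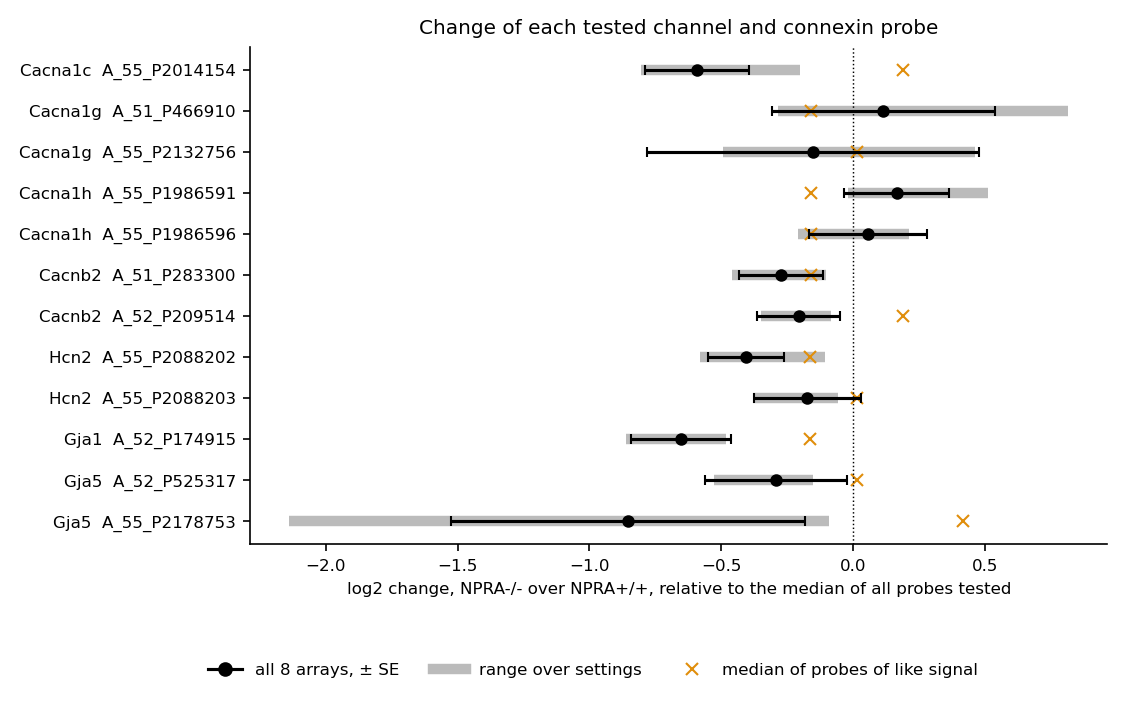
Log2 change of the 12 tested probes, NPRA-/- over NPRA+/+, relative to the median of all 35329 probes tested (points, ± SE of the fit), with the range over all settings tried (grey bars) and the median of probes of like signal (crosses). The Gja1 bar runs from -0.86 to -0.48, while those of Cacna1g and Cacna1h reach both sides of 0.

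Markers of the cells that use these genes were set beside them. Sln, Myl7 and Myl4, picked from the atrial markers after their values were seen, varied between arrays of the same genotype more than any of the 8 genes. The other atrial markers varied far less. In NPRA-/- (n = 3) and NPRA+/+ arrays (n = 5), the SD was 0.17 and 0.18 for Nppa, the brightest of the 7. It was 0.48 and 0.47 for Bmp10, 0.39 and 0.17 for Nr2f2, and 0.06 and 0.26 for Tbx5. Sln, sarcolipin, was at 2.94, -3.02 and 2.69 in NPRA-/- replicates 1 to 3, against 1.70, 0.41, -3.11, 3.85 and 2.83 in NPRA+/+ replicates 1 to 5. Myl7, the atrial regulatory light chain, was at 1.31, -3.29 and 1.25 in NPRA-/- arrays, against -0.13, -1.51, -4.49, 2.02 and 1.30 in NPRA+/+ arrays, so NPRA-/- replicate 2 and NPRA+/+ replicate 3 were lowest for both. Both Gja5 probes were highest on NPRA+/+ replicate 3 (-1.19 and -3.12), and on NPRA-/- replicate 2 they were the lowest of that genotype (-2.10 and -6.04). Whether Gja5 varied with these markers was not tested. None (0) of the 7 atrial markers passed the threshold or had an unadjusted p under 0.05 (limma), and their summed linear level ranged from 45.1 to 98.5 in NPRA-/- arrays and from 49.96 to 98.6 in NPRA+/+ arrays.

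**Figure D4:**
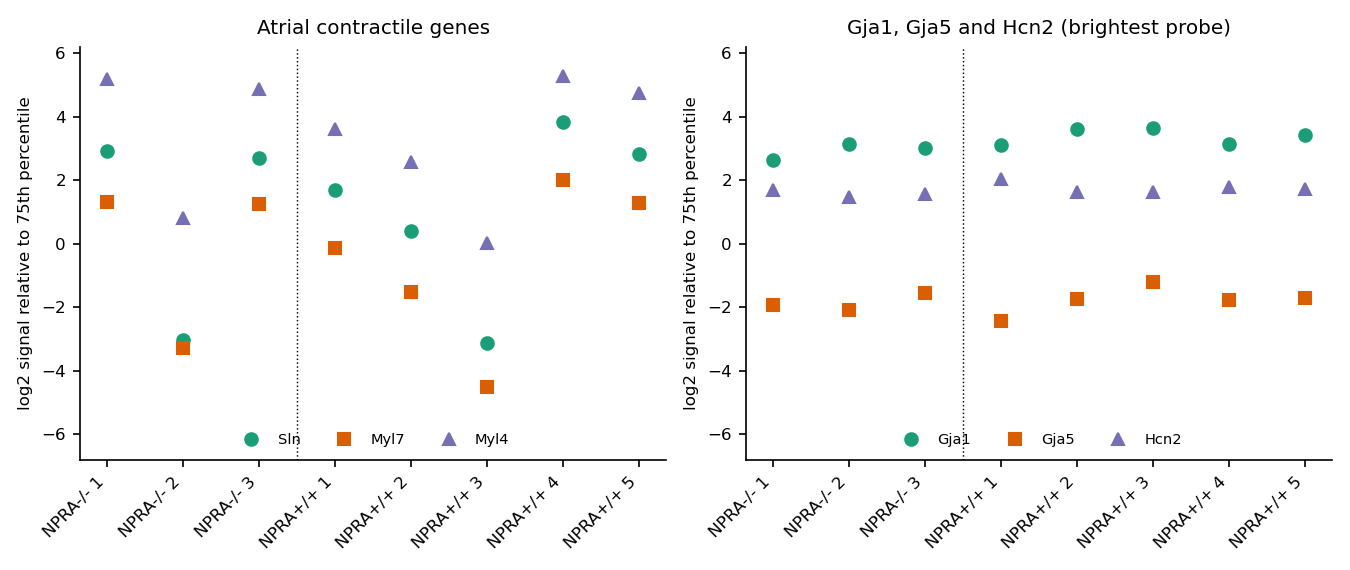
Levels of the atrial contractile genes Sln, Myl7 and Myl4 (left) and of Gja1, Gja5 and Hcn2 (right, brightest probe) on each array, on 1 common axis of log2 signal relative to the 75th percentile, NPRA-/- arrays left of the dotted line. Sln ran from -3.11 to 3.85, whereas the brighter Gja5 probe stayed between -2.44 and -1.19.

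Of 8 markers of sinoatrial and conduction cells none (0) passed (limma; 3 at an unadjusted p under 0.05, or 37.5%, against 19.7% of all probes), with a summed level of 20.7 to 31.4 in NPRA-/- arrays and 22.0 to 27.4 in NPRA+/+ arrays. Relative to the shift, 5 of these 8 were positive and 3 negative. The 3 negative ones were the brightest, Tbx3 (-0.15), Smoc2 (-0.19) and Igfbp5 (-0.08). Shox2 and Isl1 were both in the dimmest group by signal. The defining nodal factor Shox2 was detected on 2 of the 3 NPRA-/- arrays and on 1 of the 5 NPRA+/+ arrays. Isl1 was detected on all 3 NPRA-/- arrays and 4 NPRA+/+ arrays. The 7 general cardiomyocyte markers had a median relative change of 0.44 and none (0) passed (limma, and 0 at an unadjusted p under 0.05). Their summed level was 462 to 1275 in NPRA-/- arrays and 248 to 1018 in NPRA+/+ arrays. Of 5 ventricular markers none (0) passed either (0 at an unadjusted p under 0.05; summed level 241 to 565 in NPRA-/- arrays and 132 to 442 in NPRA+/+ arrays). The 6 endothelial and 6 arterial markers had 0 calls and 0 at an unadjusted p under 0.05 (limma). They summed to 31.6 to 39.7 and 6.84 to 7.69 in NPRA-/- arrays, against 32.8 to 46.7 and 6.01 to 8.73 in NPRA+/+ arrays. Of the 5 mesothelial markers, which label the epicardial surface, 1 passed (Msln, limma, adjusted p = 0.0498) and 4 had an unadjusted p under 0.05, these 4 higher in NPRA-/- without overlap. Among all probes 0.348% passed, 19.7% had such a p and 14.1% were higher without overlap. The 5 markers had a summed level of 1.12 to 1.64 in NPRA-/- arrays and 0.615 to 0.929 in NPRA+/+ arrays. Fibroblast markers had 0 calls of 6 (limma, 2 at an unadjusted p under 0.05, or 33.3%) and summed to 87.4 to 112.7 in NPRA-/- arrays and 74.7 to 82.1 in NPRA+/+ arrays. The part of these markers in the values of the channel and connexin probes was not tested.

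The wider families were described with 7 lists holding 80 genes, of which 74 were measured above the filter, each by its brightest probe. None (0) of the 74 passed (limma, smallest adjusted p 0.0721). Gjd4 and Pex5l were detected in 1 genotype only and met the filter through it, so the next counts, over the other 72 genes, leave both out. Of the other 72 genes, 17 had an unadjusted p under 0.05 (23.6%, against 19.7% of all probes), and 13 separated the genotypes without overlap (18.1%, against 15.4%). The median relative change was -0.04.

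The other connexins and pannexins had the most positive median of the 7 lists, 0.33 over 17 measured genes. Without Gjd4 the median of the other 16 was 0.285, and the genotypes did not overlap for 7 of them (43.8%), all higher in NPRA-/- arrays, against 14.1% of all probes in that direction. Of the 17 genes, 11 were among the dimmer 2 of the 5 groups by signal, where all probes were shifted upward, and 12 lay above the median of their own group. The list's median was also positive after quantile normalization (0.22) and with normexp (0.22). At an unadjusted p under 0.05 (limma) there were 7 of the 16, against 19.7% of all probes. After quantile normalization 1 of the 17 had such a p, against 8.06% of all probes. Without NPRA+/+ replicate 1, 6 of the 17 passed the threshold after adjustment, against 11.6% of all probes in that fit. With array weights 8 of the 17 did, against 27.1%. All counts over the 17 genes, and the list's medians under other settings, include Gjd4. Because Gjd4 met the filter only through the NPRA-/- arrays, no conclusion is drawn from them. Gjd2, a neuronal connexin, was at -3.63, -3.62 and -3.89 in NPRA-/- arrays, against -4.72, -4.33, -4.24, -4.58 and -4.54 in NPRA+/+ arrays, with a relative change of 0.56 ± 0.15 (SE; limma, adjusted p = 0.0721). Gjc3, a connexin of myelinating glia, had a relative change of 0.33 (limma, adjusted p = 0.0932), Gjb2 0.42 and Gja10 0.48. Less the median of probes of like signal, the fitted changes were smaller. They were 0.37 for Gjd2, 0.14 for Gjc3, 0.23 for Gjb2 and 0.29 for Gja10. Gjd4 was detected on 3 of 3 NPRA-/- and 0 of 5 NPRA+/+ arrays, with a signal at least 1.66-fold higher in NPRA-/-. That fold is taken against the lowest signal well above background on each NPRA+/+ array, or the probe's own where higher, and has no test, since Gjd4 met the filter only through the NPRA-/- arrays.

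Among 17 measured calcium channel genes other than the 4 above, 12 were negative and 5 positive relative to the shift (median -0.11, which turned positive with normexp and without NPRA+/+ replicate 5). Cacng7, a gamma subunit gene, was at -0.39, -0.18 and -0.36 in NPRA-/- arrays, against -0.57, -0.55, -1.01, -0.94 and -0.99 in NPRA+/+ arrays (relative change 0.29, limma, adjusted p = 0.149). Cacna1d, the L-type pore of pacemaker cells, had a relative change of 0.14 without overlap (limma, adjusted p = 0.204), and Cacna1f, known from the retina, 0.46 (0.203). Less the median of probes of like signal, their fitted changes were -0.04 and 0.27. A dimmer probe of Cacna1d ran from -8.42 to -1.70 in NPRA+/+ arrays, and its genotypes overlapped (relative change 0.94, limma, adjusted p = 0.685). It was detected on all 3 NPRA-/- arrays and on 3 of the 5 NPRA+/+ arrays. Of 11 genes that regulate L-type channels, Jph2, which holds surface and store membranes together, had a relative change of 0.24, Gem, an inhibitor of the channel, 0.17, and Akap5, which anchors protein kinase A, -0.56 (limma, adjusted p from 0.228 to 0.252).

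Hcn3, a further HCN channel, was at -4.22, -4.34 and -4.50 in NPRA-/- arrays, against -4.50, -5.29, -5.28, -5.34 and -5.43 in NPRA+/+ arrays. All NPRA-/- arrays lay above 4 of the NPRA+/+ arrays and beside replicate 1, with a relative change of 0.61 ± 0.23 (SE; limma, adjusted p = 0.111), on a probe of the dimmest group. Less the median of probes of like signal, the fitted change of Hcn3 was 0.19. Pex5l, whose product binds HCN channels, was above background on no NPRA-/- array (0 of 3) and on 4 of 5 NPRA+/+ arrays. It met the filter only through the NPRA+/+ arrays, where it ran from -8.22 to -3.81, and no fold or test is given. Bves, a cyclic AMP-binding membrane protein of heart muscle, had a relative change of 0.00.

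The transcription factors of the conduction system had the most negative median relative change of the lists, -0.24 over 10 genes. That median was negative, from -0.39 to -0.11, under each of the 25 alternatives. The ranking depended on the scale. Less the median of probes of like signal, the median of this list was -0.14. The calcium channel family was then the most negative, at -0.22. Irx3, which patterns the ventricular conduction system, was at 1.37, 1.41 and 1.42 in NPRA-/- arrays, against 1.84, 1.76, 2.22, 1.82 and 1.66 in NPRA+/+ arrays. The genotypes did not overlap, and the relative change was -0.67 ± 0.15 (SE; limma, adjusted p = 0.152). Irx5 had a relative change of -0.74 (limma, adjusted p = 0.295) and Isl1 0.52 (0.286). Less the median of probes of like signal, the fitted change of Isl1 was 0.10 and that of Irx5 -0.75. Of the partners of Gja1 at the intercalated disc, Jup, plakoglobin, had a relative change of 0.30 without overlap (limma, adjusted p = 0.151), Xirp2 -0.43 and Xirp1 0.03. Among 3 measured sodium channel beta subunits, Scn2b had a relative change of 0.63 (limma, adjusted p = 0.213), and Scn4b -0.12. Scn2b was in the dimmest group, and its fitted change less the median of probes of like signal was 0.22.

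**Figure D5:**
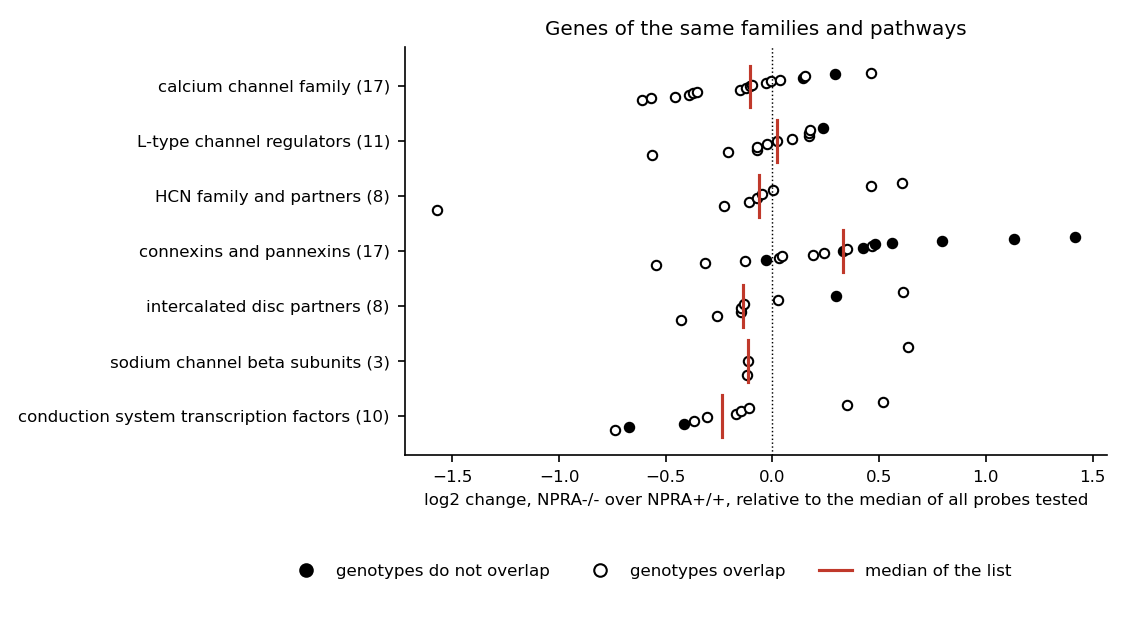
Log2 change relative to the median of all probes tested (NPRA-/- over NPRA+/+) for the measured genes of 7 lists, with filled points where the genotypes do not overlap and a red line at the median of each list. On this scale the connexins and pannexins, Gjd4 included, have the most positive median (0.33) and the conduction system transcription factors the most negative (-0.24). Less the median of probes of like signal, which is not drawn, the calcium channel family has the most negative median (-0.22).

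By Pearson's r of the levels over the 8 arrays, among 20073 named probes above background everywhere, the genes most like each member differed from gene to gene. Gja1 was closest to Rpgrip1l (r = 0.987) and Tmeff1 (0.977), Gja5 to Rhoc (0.975) and Gsk3b (0.967), and Cacna1c to Nme8 (0.966) and Lmntd1 (0.944). Hcn2 was closest to Grm2 (0.986) and Rabggtb (0.985), and Cacnb2 to Vps25 (0.979) and Tab2 (0.960). Cacna1h was closest to Lrrc27 (0.985) and Klf17 (0.984), and Cacna1g to Sh3gl3 (0.973) and Il33 (0.961). These values describe 8 arrays, some of which share a scan day, and were the highest of a large search.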

How the data were processed

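RNA of 8 myocardium samples was hybridised as Cy3 cRNA to 1 array each. The deposited scanner output gives each spot's intensity on a linear scale, which per the file headers was background-subtracted within the array, and its quality flags; the software was Agilent Feature Extraction 11.0.1.1. The deposited series table holds log2 values with a column median of 7.05 in every array; how it was normalized is stated neither in the labels nor in the table, and it served as an alternative.

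Control spots were left out, flagged outlier spots set to missing, spots of 1 probe averaged, and each array's 75th percentile subtracted on the log2 scale. No non-control probe was saturated (0). Detection (well above background) needed a share of 0.5 or more of the spots of a probe, and the 35329 probes detected on 3 or more arrays entered the test (4100 did not). Names came from the RefSeq gene table of GRCm38.p6 (27234 probes with 1 symbol, 12195 with none); coordinates are left out because the array was designed on another build. The comparison was limma 3.58.1 (R 4.3.3), two-sided at an adjusted p of 0.05, and its script was tested on simulated data. Normexp, an alternative, used median spot signals and an offset of 50. For the alternative with slide as a random block, the slide was inferred. Arrays with the same scan time in the file headers were counted as on the same slide. The rule for named genes took every member probe, up to 3 genes of each list by p, and genes without overlap and a fitted change over 0.5. A few genes that it took are not reported here. An exact permutation test for member probes outside the fit was run but is not given, since the one such probe, Hcn4, was below background on every array. The members and lists were chosen with earlier results of these data known.

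Repetition numbers are shared between genotypes in the labels. Deviations from the genotype mean correlated by 0.63, 0.28 and 0.36 for numbers 1 to 3, which meets the rule set for pairing (each over 0.1), though unequal numbers met it too (0.33 for NPRA-/- replicate 3 with NPRA+/+ replicate 2).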

Additional observations from a re-analysis of the deposited data

Results flagged for a closer look

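The dimmer Cacna1g probe (A_55_P2132756) was at 0.14 on NPRA+/+ replicate 1, far from the other 4 NPRA+/+ arrays, which lay between -2.68 and -2.37. Hcn3 was at -4.50 on the same array, against -5.43 to -5.28 on the other NPRA+/+ arrays. The search covered the NPRA+/+ arrays of all 13 member probes and also genes of the wider families, Hcn3 among them. Chance flags about 1 in 20 groups of arrays in this way. NPRA+/+ replicate 1 was the only array of scan day 4, and the part of the scan day in these values was not tested.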

How the results depend on the processing

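All 25 alternatives kept the negative sign of the relative change for Cacna1c, Cacnb2, Hcn2, Gja1 and Gja5 on every tested probe, and the median of the 12 probes stayed between -0.35 and -0.14. In total 123 probes were called before any alternative. There were 0 calls with quantile normalization, scaling to the median, normexp, the deposited table, scan day as a block, slide as a random block, an intensity trend, the replicate number as a block by repetition number, and quantile normalization joined with that block or with scan day 1 (limma; 2848 to 10514 probes at an unadjusted p under 0.05). There were 193 without a filter, 3 with probes above background everywhere, 22 with the replicate block by source name number, 1 after averaging arrays that share that number, 5979 within scan day 1, 9557 with array weights, and 4134 without scan days 3 and 4. Leaving out 1 array gave 0 to 4088 calls, the 4088 without NPRA+/+ replicate 1. Of the 12 probes, 1 was called within scan day 1 (Gja1), against 16.9% of all probes. With array weights 2 were (Gja1 and the brighter Cacna1h probe), against 27.1% of all probes. Without scan days 3 and 4 there was 1 (the dimmer Cacna1g probe), against 11.7%. Leaving out 1 array gave 0 to 1, the 1 being the same Cacna1g probe without NPRA+/+ replicate 1, against 11.6% of all probes. The replicate block changed no call among the 12. The alternatives without scan days 3 and 4, and both that join quantile normalization with another choice, were chosen after seeing the data.

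Signs turned for 4 probes of the T-type genes. The relative change of the brighter Cacna1g probe was -0.059 with normexp, -0.11 with slide as a random block, -0.16 with the replicate block by source name number, -0.17 after averaging, and -0.28 to 0.44 without single arrays (below 0 without NPRA-/- replicate 3 and NPRA+/+ replicates 1 or 3, at -0.28, -0.052 and -0.046). That of the dimmer Cacna1g probe was 0.46 with scan day as a block and within scan day 1, 0.054 after averaging, 0.37 with array weights, 0.39 without scan days 3 and 4, 0.44 with quantile normalization within scan day 1, and -0.32 to 0.38 without single arrays (above 0 without NPRA+/+ replicate 1). That of the brighter Cacna1h probe was -0.018 with normexp. That of the dimmer Cacna1h probe was -0.065 with normexp, -0.13 with scan day as a block and within scan day 1, -0.11 with array weights, -0.21 without scan days 3 and 4, -0.072 with quantile normalization within scan day 1, and -0.21 to 0.21 without single arrays (below 0 without NPRA-/- replicate 1 or NPRA+/+ replicate 2, at -0.21 and -0.013). The cause of these turns was not tested. The number of arrays limits the precision.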
